A study of Mus musculus with 12 samples.

Results

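The genes described here are 48 members of the machinery of mitosis and chromosome segregation: cyclins and kinases that start mitosis, the spindle checkpoint, the anaphase-promoting complex with its substrates, kinetochore proteins, kinesins, spindle factors, cytokinesis genes and condensins. They were taken by symbol from a list of G2 and M phase genes. No measured value entered that rule, but the list was chosen with earlier results of these data known. All 48 were among the 23361 genes of the deposited table and among the 10868 that could be tested. RNA was sequenced from mouse regulatory T cells (Tregs), a Foxp3-expressing class of CD4 T cells that holds immune responses in check, in 12 libraries from an autoimmune diabetes model. There were 3 libraries in each of 4 groups: wild-type (Wt) Tregs from pancreatic islets, Lag3-deficient Tregs from islets, and Wt and Lag3-deficient Tregs from non-draining lymph nodes (NDL). Lag3 is an inhibitory receptor of T cells that binds MHC class II, and the title of the series places its effect on how Tregs proliferate and function. Whether Lag3 was lost in Tregs alone or in all cells, the mouse strain, age and sex, and the sorting markers are details that the sources used here do not give. No label ties the libraries of a group to different mice, and p-values therefore measure the spread between these libraries, which may be technical.

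Most of these genes are silent in resting lymphocytes and are transcribed in a wave from late S phase to mitosis. Their products condense the chromosomes, attach them to spindle microtubules, hold anaphase until every kinetochore is attached, and then let the anaphase-promoting complex mark securin and the mitotic cyclins for destruction so that the cell can divide. Their summed RNA is therefore widely used as a sign of cycling cells, and Tregs are known to divide in inflamed tissue.

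Levels are given as CPM, the deposited rescaled counts brought to a common library sum with TMM scaling, and differences as log2 differences of CPM + 1 with their standard error (SE). A gene is said to have risen or fallen where limma gave a p-value, adjusted by the Benjamini-Hochberg method over all 10868 genes, under 0.05. The columns of each group carry the numbers 1, 2 and again 1, written here as 1a, 2 and 1b. The deposited columns were scaled to nearly equal totals (15232498 to 15370098), so sequencing depth is unknown. Lag3 islet 2 and Wt NDL 2 had been scaled up the most, by about 2.8 and 1.6, and Rn45s, a ribosomal RNA gene, took 1.26 to 1.68% of the 4 columns called 1b and 0.149 to 0.571% of the others. The targeted gene Lag3 was listed at 40 to 120 rescaled counts in Wt islet libraries, 0 to 1 in Lag3-deficient islet, 2 to 6 in Wt NDL and 0 to 3 in Lag3-deficient NDL libraries. Tregs were recognisable in every library, with Foxp3 between 224 and 654 CPM and no call between tissues (log2 difference -0.51, limma adjusted p = 0.518). Of the other 7 genes of Treg and T cell identity 1 rose in islets, Ctla4, an inhibitory receptor of Tregs, with 1830 to 3370 CPM there and 242 to 544 CPM in NDL (2.66, adjusted p = 2.03e-06).

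Averaged over both genotypes, islet Tregs held more RNA of part of the mitotic machinery than NDL Tregs. Of the members, 8 of 48 rose in islets and 0 fell, where 0.819% of all tested genes rose and 0.101% fell. The 8 were Top2a, Ube2c, Hmgb2, Cenpe, Stmn1, Ncapg, Nusap1 and Ccna2. The log2 difference was above 0 for 45 of 48 members (47.9% of all tested genes), with a median of 1.96 over the members and -0.04 over all tested genes. Of these members 2, Aurka and Anln, reached the 10 rescaled counts needed for testing in islet libraries alone, as did 133 of all tested genes. Their positive sign therefore follows from the filter. With Bub1, Spc25, Ect2 and Kif4, 6 members had fewer than 3 NDL libraries at 10 or more. They were tested only through their islet libraries, which favours a positive sign. For 1 member, Ccnf, fewer than 3 islet libraries reached 10. All are included in the counts here and below, and none was among the 8 that rose. Where 10 rescaled counts were asked of at least 6 libraries, 42 of 44 members were positive. Their median was 1.95, against -0.05 over all tested genes. That filter leaves out Aurka, Anln, Kif4 and Ccnf and keeps Bub1, Spc25 and Ect2. At an unadjusted p under 0.05, 29 members were higher (5.81% of all tested genes) and 0 were lower (5.46%). For 9 members all 6 islet libraries lay above all 6 NDL libraries (1.32% of all tested genes), and for 0 below them (0.478%). The count of 8 was 2 without Wt islet 2, 5 without Lag3 islet 1b, Wt islet 1b or Wt NDL 2, 2 without both Lag3 islet 2 and Wt NDL 2, 1 without the 1b columns and 2 with no filter on low values. In bulk RNA a larger share of cells in mitosis and more of this RNA per cell cannot be told apart.

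Seen by library, the mean log2 level of the 48 members was 5.16, 6.21 and 5.34 in Wt Tregs of islets (columns 1a, 2 and 1b), and 4.51, 4.96 and 5.77 in Lag3-deficient islet libraries. It was 3.55, 2.60 and 3.43 in Wt NDL and 3.28, 4.02 and 3.35 in Lag3-deficient NDL libraries. Every islet library thus stood above every NDL library, while the libraries of the 2 genotypes overlapped in each tissue. The members at 10 CPM or more numbered 32 to 45 in islet and 16 to 35 in NDL libraries, and those below 1 CPM 1 to 11 and 5 to 20.

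**Figure D1:**
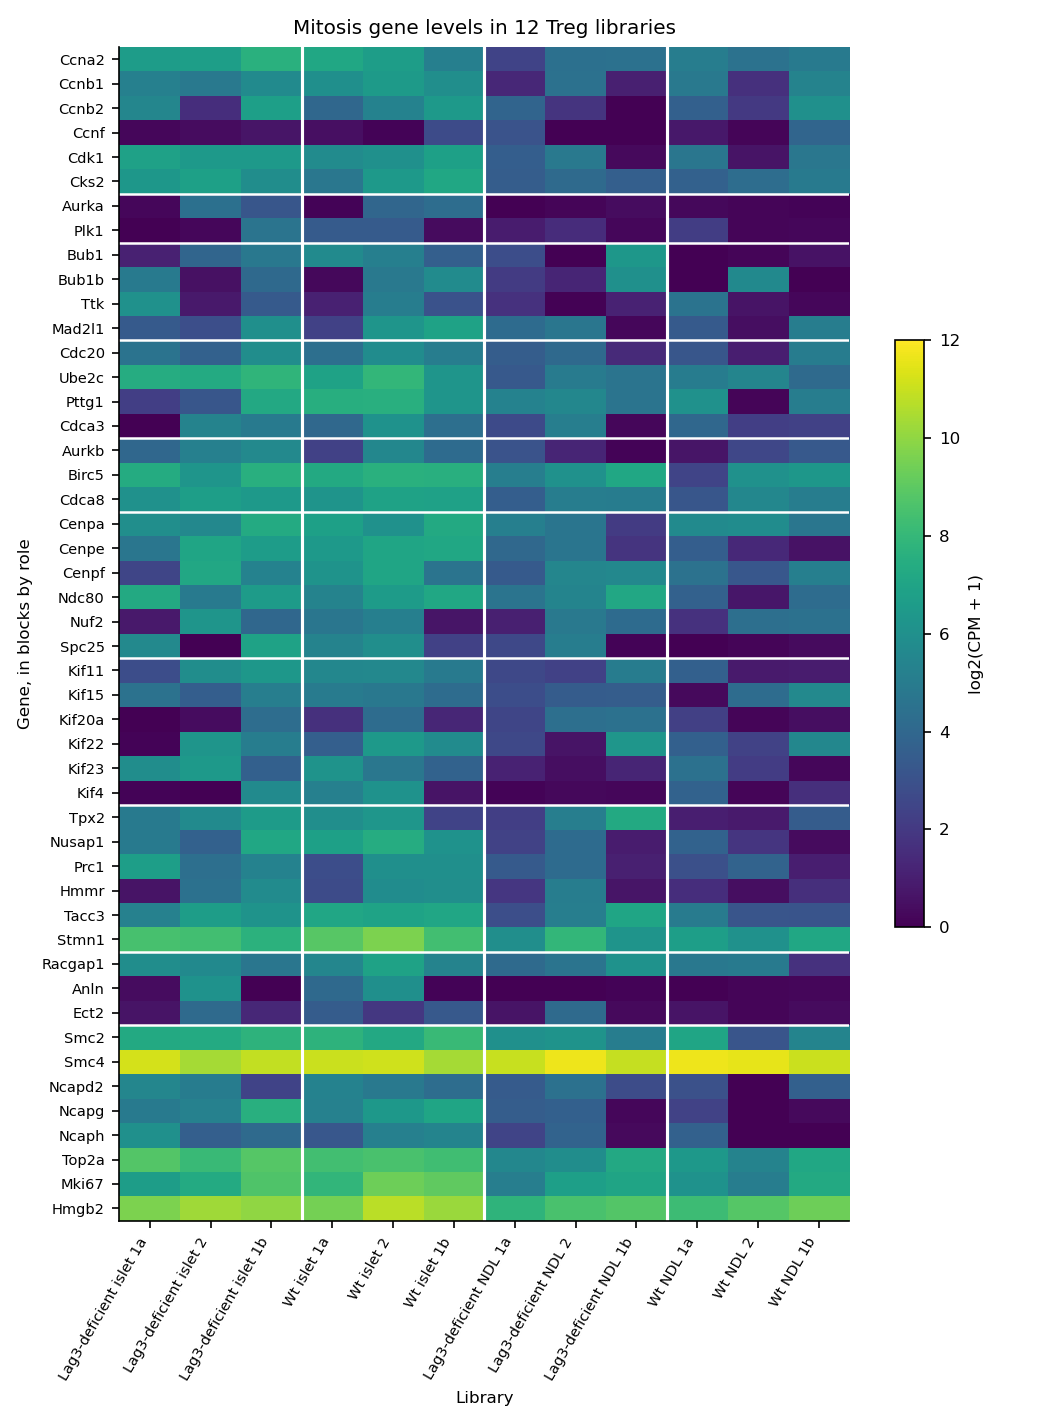
Level of each of the 48 mitosis genes as log2(CPM + 1) (colour) in each of the 12 libraries (columns, in 4 groups parted by lines), with genes in blocks by role. Islet columns hold 32 to 45 members at 10 CPM or more and NDL columns 16 to 35, and Smc4 is high in all 12.

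Many of the members carry a promoter motif that is known for genes of G2 and M phase. It played no direct part in choosing them, but the class they were chosen from is known for it. Genes of this wave are known to be held off in resting cells by the DREAM complex and switched on by B-Myb and FoxM1 with MuvB, which binds the cell cycle genes homology region (CHR), often close to CCAAT boxes bound by NF-Y. RefSeq promoters on GRCm38.p6, from 250 bases before to 50 after the start, were searched for 42 of the 48 members. The set searched held none for Ccna2, Aurkb, Kif20a, Tpx2, Stmn1 and Smc4. Promoters on the chromosome of Kif20a were left out beforehand, for the members and for the backgrounds given here. Whether Kif20a has a matching promoter was therefore not examined. A CHR was searched as TTTGAA. The variant form TTCGAA was searched as well, and both strands were read. It was found in 32 of 42 (76.2%), against 21.7% of 27025 gene symbols with a promoter of this length and 16.4% of 8156 tested genes. CCAAT, on both strands, was found in 32 of 42 (76.2%), against 41.1% and 43.4%. Both stood in 29 of 42 (69.0%), against 9.65% and 8.14%. In the window from 100 bases before to 50 after the start a CHR was found in 31 of 42 (73.8%), against 9.87% of all symbols. On the strand of the gene alone a CHR was found in 26 of 42 (61.9%), against 13.2% of all symbols. CCAAT was found there in 22 of 42 (52.4%), against 23.7%. A match is a description of letters and not evidence of a bound factor, and matches of the 2 motifs may share letters.

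The 250 bases before the start are shown for 5 members that rose in islets, in capitals where a CHR or a CCAAT stands on either strand. Ube2c, Top2a, Hmgb2 and Ncapg show the CHR with CCAAT, and Cenpe a CCAAT with no CHR. They lie at chr2:164769679-164769928 (plus strand), chr11:99024190-99024439 (minus), chr8:57511593-57511842 (plus), chr5:45669675-45669924 (plus) and chr3:135212313-135212562 (plus), in this order.
Ube2c: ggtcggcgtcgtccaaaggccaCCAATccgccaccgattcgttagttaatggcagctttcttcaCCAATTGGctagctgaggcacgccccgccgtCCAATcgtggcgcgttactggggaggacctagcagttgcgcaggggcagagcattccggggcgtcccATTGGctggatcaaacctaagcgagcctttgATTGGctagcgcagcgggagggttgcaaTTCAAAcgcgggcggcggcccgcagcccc
Top2a: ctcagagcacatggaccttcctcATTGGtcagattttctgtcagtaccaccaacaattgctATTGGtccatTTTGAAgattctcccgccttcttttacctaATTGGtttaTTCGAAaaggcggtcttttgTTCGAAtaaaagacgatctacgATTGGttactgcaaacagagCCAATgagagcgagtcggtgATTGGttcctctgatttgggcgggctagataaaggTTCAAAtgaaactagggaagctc
Hmgb2: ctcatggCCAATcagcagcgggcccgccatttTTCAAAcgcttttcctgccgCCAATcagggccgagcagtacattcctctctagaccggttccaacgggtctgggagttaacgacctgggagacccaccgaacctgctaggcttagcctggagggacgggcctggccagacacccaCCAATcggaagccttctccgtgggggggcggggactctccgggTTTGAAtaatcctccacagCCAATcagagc
Ncapg: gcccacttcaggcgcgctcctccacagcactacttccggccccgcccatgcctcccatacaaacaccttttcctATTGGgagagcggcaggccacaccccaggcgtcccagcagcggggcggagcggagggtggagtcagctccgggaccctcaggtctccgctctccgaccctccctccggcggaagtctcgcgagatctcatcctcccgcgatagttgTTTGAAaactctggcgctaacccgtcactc
Cenpe: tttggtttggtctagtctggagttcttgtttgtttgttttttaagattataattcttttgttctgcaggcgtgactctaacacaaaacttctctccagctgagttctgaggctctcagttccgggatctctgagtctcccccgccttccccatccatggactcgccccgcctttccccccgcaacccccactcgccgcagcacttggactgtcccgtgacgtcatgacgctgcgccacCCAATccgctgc

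In Hmgb2 and Ncapg a CHR began 30 bases before the start, and in Ube2c 29 bases before it. The Top2a sequence held 4 CHR and 6 CCAAT matches, the Ube2c sequence 1 and 6. Within the members, having a CHR did not go with a larger tissue difference. The 32 members with one had a median log2 difference of 1.94 between islets and NDL, with 4 of the 8 that rose, and the 10 without one a median of 2.17, with 2 (Cenpe and Nusap1).

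Among the cyclins and the mitotic kinase that they drive, Ccna2 rose and Cdk1, Ccnb1 and Cks2 had differences of like size that did not pass. Cyclin A2, encoded by Ccna2 (chromosome 3, 36564865 to 36572150, minus strand, GRCm38), serves S phase and the entry into mitosis. In islets, in the order 1a, 2 and 1b that is kept throughout, Ccna2 measured 142, 102 and 35.3 CPM in Wt Tregs and 97.8, 106 and 193 CPM in Lag3-deficient Tregs. In NDL it measured 33.5, 21.7 and 29.8 CPM in Wt and 4.36, 20.6 and 21.3 CPM in Lag3-deficient libraries. All islet libraries stood above all NDL libraries, narrowly for Wt islet 1b. The log2 difference was 2.35 ± 0.56 (limma adjusted p = 0.0486), a value close to the threshold. Ccna2 passed in only 6 of 24 alternative settings and left-out libraries, and its exons overlap those of Exosc9 on the other strand. Cdk1, the kinase of mitotic entry, ranged from 53.7 to 114 CPM in islets and from 0.225 to 28.3 CPM in NDL, without overlap, and differed by 3.26 ± 0.85 (adjusted p = 0.0812). Ccnb1, which encodes cyclin B1, the partner of Cdk1, differed by 2.59 ± 0.83, and Cks2, a small subunit of cyclin-dependent kinases, by 2.18 ± 0.58 (adjusted p = 0.0902). Ccnb2 encodes a further B-type cyclin and differed by 2.04 ± 1.06, with 0 CPM in Lag3 NDL 1b and 64.9 CPM in Wt NDL 1b. Ccnf, whose cyclin F is a substrate receptor of an SCF ubiquitin ligase, was below 1 CPM in 5 of 6 islet libraries and differed by -0.55 ± 0.74.

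Aurka and Plk1, kinases of the spindle poles and of mitotic progression, were low and uneven. Aurka, the Aurora kinase of centrosomes and spindle poles, measured 0.151, 20.8 and 8.19 CPM in Lag3-deficient and 0.069, 14.5 and 18.8 CPM in Wt islet libraries, whereas NDL libraries did not exceed 0.299 CPM. Its signal therefore came from 4 islet libraries (2.53 ± 0.83, adjusted p = 0.202). Plk1, a polo-like kinase needed through mitosis, was highest at 23.4 CPM in Lag3 islet 1b and differed by 1.14 ± 0.86 (adjusted p = 0.657).

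Of the 4 checkpoint genes, whose products delay anaphase while kinetochores are unattached, 4 had a positive difference and 0 passed. Bub1, a checkpoint kinase, differed by 2.41 ± 1.1, Ttk, which encodes the Mps1 kinase, by 1.87 ± 1.09, Mad2l1, which encodes the Mad2 inhibitor of Cdc20, by 1.62 ± 1.13 and Bub1b, which encodes BubR1, by 0.90 ± 1.33. Single NDL libraries reached islet levels here. Bub1 stood at 80.9 CPM and Bub1b at 64.7 CPM in Lag3 NDL 1b, and Bub1b at 51.1 CPM in Wt NDL 2, while other NDL libraries were at 6.18 CPM or below for both genes.

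Ube2c, the ubiquitin-conjugating enzyme that works with the anaphase-promoting complex and marks its substrates, rose in islets. Ube2c (chromosome 2, 164769898 to 164778822, plus strand) measured 121, 247 and 76.0 CPM in Wt and 170, 158 and 231 CPM in Lag3-deficient islet libraries. Its NDL levels were 31.7, 43.1 and 17.0 CPM in Wt and 9.30, 30.8 and 23.2 CPM in Lag3-deficient libraries. The lowest islet library stood well above the highest NDL library. Ube2c differed by 2.69 ± 0.48, a 6.44-fold rise on this scale (limma adjusted p = 0.00759). Its exons overlap those of Tnnc2 on the other strand, and strandedness is not given in the sources used here. Cdc20, which activates the complex at anaphase, differed by 1.86 ± 0.89, Cdca3, a trigger of mitotic entry, by 1.40 ± 1.11, and Pttg1, which encodes securin, the inhibitor of separase, by 1.2 ± 0.94. None of these 3 passed, with adjusted p-values of 0.442 to 0.686.

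The chromosomal passenger complex corrects faulty attachments of chromosomes and guides cytokinesis. Cdca8, which encodes borealin, ranged from 65.2 to 118 CPM in islets and from 8.17 to 45.4 CPM in NDL, with no overlap (1.93 ± 0.54, adjusted p = 0.112). Birc5, which encodes survivin, ranged from 75.3 to 198 CPM in islets and from 4.42 to 139 CPM in NDL, where Lag3 NDL 1b was the high library (1.75 ± 0.59, adjusted p = 0.217). Aurkb, the kinase of the complex, differed by 2.67 ± 0.97 (adjusted p = 0.262). The 3 differences were alike in direction and 0 of 3 passed.

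At the kinetochore, Cenpe, a kinesin that brings chromosomes to the spindle equator, rose the most. Cenpe (chromosome 3, 135212537 to 135273611, plus strand) measured 85.7, 134 and 140 CPM in Wt and 25, 131 and 98.5 CPM in Lag3-deficient islet libraries. The NDL libraries gave 11.2, 1.64 and 0.507 CPM in Wt and 15.5, 24.3 and 2.47 CPM in Lag3-deficient libraries. The groups did not overlap, although Lag3 islet 1a and Lag3 NDL 2 nearly met. The log2 difference was 3.82 ± 0.77 (adjusted p = 0.0165). Spc25 and Ndc80, subunits of the Ndc80 complex that binds microtubules, differed by 2.98 ± 1.22 and 1.99 ± 0.71, and Cenpa, the histone variant of centromeres, by 1.81 ± 0.59, none passing. Cenpf, a large kinetochore protein, differed by 0.90 ± 0.78. Nuf2, a further subunit of the Ndc80 complex, differed by 0.17 ± 1.15 and reached 17.4 to 27.5 CPM in 4 of the 6 NDL libraries.

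None of the 6 kinesin genes, which encode motors of the spindle and midbody, passed. Kif23, the motor of the central spindle, differed by 3.50 ± 0.97 (adjusted p = 0.112), and Kif11, which pushes spindle poles apart, by 2.61 ± 0.92 (adjusted p = 0.247). Kif4, a chromokinesin, differed by 1.95 ± 1.13, Kif15, a spindle motor, by 1.2 ± 0.91 and Kif22, a motor on chromosome arms, by 1.03 ± 1.15. Kif20a, a motor of cytokinesis, had 0, 0.33 and 18.7 CPM in Lag3-deficient islet libraries and 4.75, 19.8 and 21.0 CPM in Lag3-deficient NDL libraries, and differed by -0.39 ± 0.96. Its exons overlap those of Cdc23, a subunit of the anaphase-promoting complex, on the other strand.

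Among spindle and microtubule factors Stmn1 and Nusap1 rose. Stmn1 encodes stathmin, which destabilises microtubules (chromosome 4, 134468320 to 134473843, plus strand). Stmn1 measured 472, 790 and 330 CPM in Wt and 358, 326 and 209 CPM in Lag3-deficient islet libraries. In NDL it measured 106, 66.0 and 139 CPM in Wt and 60.1, 245 and 72.2 CPM in Lag3-deficient libraries. Lag3 NDL 2 alone reached into the islet range. The difference was 1.91 ± 0.39 (adjusted p = 0.0165). Nusap1, which bundles microtubules around chromosomes (chromosome 2, 119618298 to 119651244, plus strand), measured 113, 171 and 68.8 CPM in Wt and 29.0, 12.3 and 140 CPM in Lag3-deficient islet libraries. Its NDL values were 12.5, 2.61 and 0.29 CPM in Wt and 4.08, 17.5 and 0.898 CPM in Lag3-deficient libraries. Lag3 islet 2 thus lay within the NDL range, and Nusap1 differed by 3.79 ± 0.89 (adjusted p = 0.047). It passed in only 8 of 24 alternative settings and left-out libraries. Exons of Oip5 lie opposite to those of Nusap1.

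The other 4 spindle factors had positive differences that did not pass. Prc1, which bundles the central spindle, differed by 2.47 ± 0.92, Hmmr, a microtubule-binding factor of spindle assembly, by 2.34 ± 1.11, Tacc3, which stabilises kinetochore fibres with clathrin, by 2.16 ± 0.65 and Tpx2, an activator of Aurora A, by 1.97 ± 0.96. Tacc3 stood at 132 CPM in Lag3 NDL 1b and between 6.28 and 34.5 CPM in the other NDL libraries, against 38.1 to 138 CPM in islets. The 3 cytokinesis genes went the same way, with 0 passing. Anln, which encodes the actin-binding anillin of the cleavage furrow, differed by 2.70 ± 1.02, Ect2, the exchange factor that activates RhoA there, by 1.45 ± 0.85 and Racgap1, its partner at the central spindle, by 1.29 ± 0.68. Anln rested on Lag3 islet 2 (69.5 CPM), Wt islet 2 (62.3 CPM) and Wt islet 1a (16.1 CPM), with the other 9 libraries at 0.302 CPM or below.

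Genes of chromosome structure held the smallest p-value and the widest spread of differences. Top2a encodes the topoisomerase that untangles sister chromatids (chromosome 11, 98992943 to 99024189, minus strand). Top2a measured 324, 380 and 319 CPM in Wt and 439, 284 and 458 CPM in Lag3-deficient islet libraries. Its NDL levels were 82.4, 39.9 and 140 CPM in Wt and 45.9, 58.0 and 149 CPM in Lag3-deficient libraries. All 6 islet libraries stood above all 6 NDL libraries, and the islet values of the genotypes overlapped. Top2a differed by 2.25 ± 0.38, or 4.74-fold (limma adjusted p = 0.00522). It was the 1 member that passed under all 24 alternative settings and left-out libraries.

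Hmgb2 encodes a DNA-bending chromatin protein (chromosome 8, 57511907 to 57515999, plus strand). Hmgb2 measured 727, 1740 and 1180 CPM in Wt and 802, 1240 and 1020 CPM in Lag3-deficient islet libraries. Its NDL values were 300, 452 and 646 CPM in Wt and 220, 381 and 445 CPM in Lag3-deficient libraries. The tissues did not overlap, and the difference of 1.47 ± 0.29 (adjusted p = 0.0144) was the smallest among the 8 that rose. Ncapg, a subunit of condensin I (chromosome 5, 45669919 to 45700546, plus strand), had the largest. Ncapg measured 37.1, 82.7 and 132 CPM in Wt and 29.8, 37.3 and 191 CPM in Lag3-deficient islet libraries. The NDL libraries gave 4.12, 0 and 0.217 CPM in Wt and 10.7, 12 and 0.15 CPM in Lag3-deficient libraries. It was near or at 0 in 3 NDL libraries and nowhere in islets, with a difference of 4.40 ± 0.92 (adjusted p = 0.02). Exons of Lcorl overlap Ncapg on the other strand.

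Mki67, which encodes the proliferation marker Ki-67 that coats mitotic chromosomes, just missed the threshold. It measured 241, 657 and 528 CPM in Wt and 100, 158 and 420 CPM in Lag3-deficient islet libraries. In NDL the values were 68.0, 33.3 and 156 CPM in Wt and 33.8, 110 and 127 CPM in Lag3-deficient libraries. Lag3 islet 1a and 2 were the low islet libraries, and Lag3 islet 1a lay within the NDL range. The averaged difference was 1.93 ± 0.48 (adjusted p = 0.0575). Smc2, the core condensin subunit, ranged from 151 to 282 CPM in islets and from 7.88 to 134 CPM in NDL, with no overlap (2.12 ± 0.53, adjusted p = 0.0607). Of the other condensin I subunits, Ncaph differed by 2.90 ± 1.02 and Ncapd2 by 1.67 ± 0.92.

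Smc4, the partner of Smc2 in the condensin core, stood apart from the other members. It measured 2130, 2260 and 1350 CPM in Wt and 2360, 1330 and 1890 CPM in Lag3-deficient islet libraries. In NDL it measured 3310, 2970 and 2120 CPM in Wt and 2010, 3280 and 1980 CPM in Lag3-deficient libraries. Its libraries overlapped between tissues, and it differed by -0.47 ± 0.24 (95% interval -0.96 to 0.02, adjusted p = 0.463). Per kilobase of exon Smc4 was the member with the highest mean level over all libraries (432 CPM per kb), ahead of Hmgb2 (254), Stmn1 (138) and Cks2 (72.6). In islets alone the levels of Hmgb2 (372 CPM per kb) and Smc4 (362) were close, and in NDL Smc4 (501) was followed by Hmgb2 (136). Smc4 and Smc2 differed widely in level, with 23.3 CPM per kb for Smc2.

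**Figure D2:**
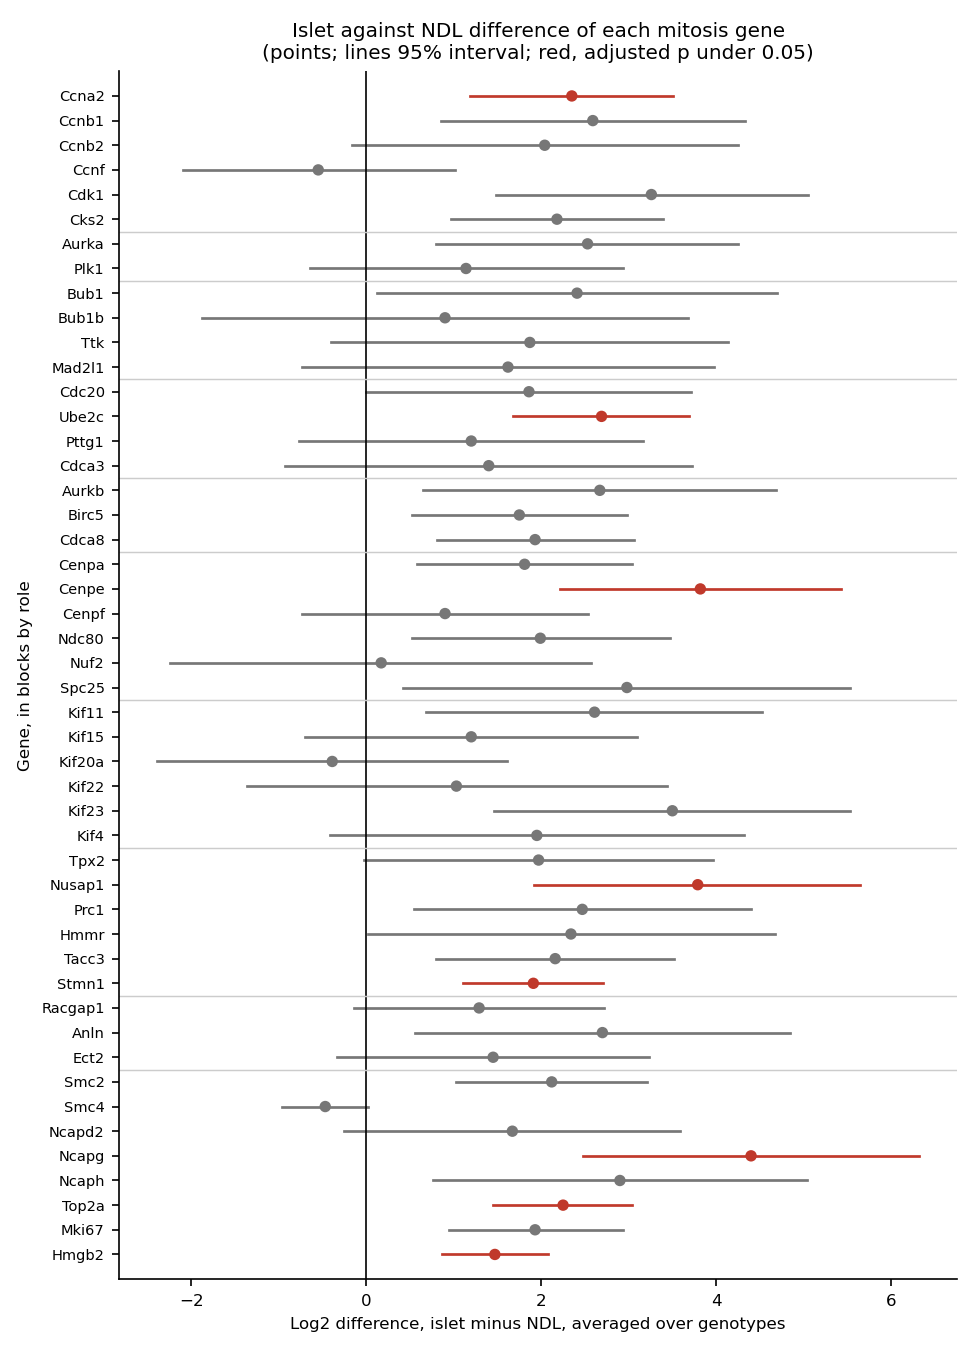
Log2 difference between islet and NDL libraries, averaged over genotypes, for each of the 48 members (points) with its 95% interval (lines), in blocks by role. Members with an adjusted p under 0.05 are red, 45 of 48 points lie above 0, and Smc4, Ccnf and Kif20a lie below it.

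**Figure D3:**
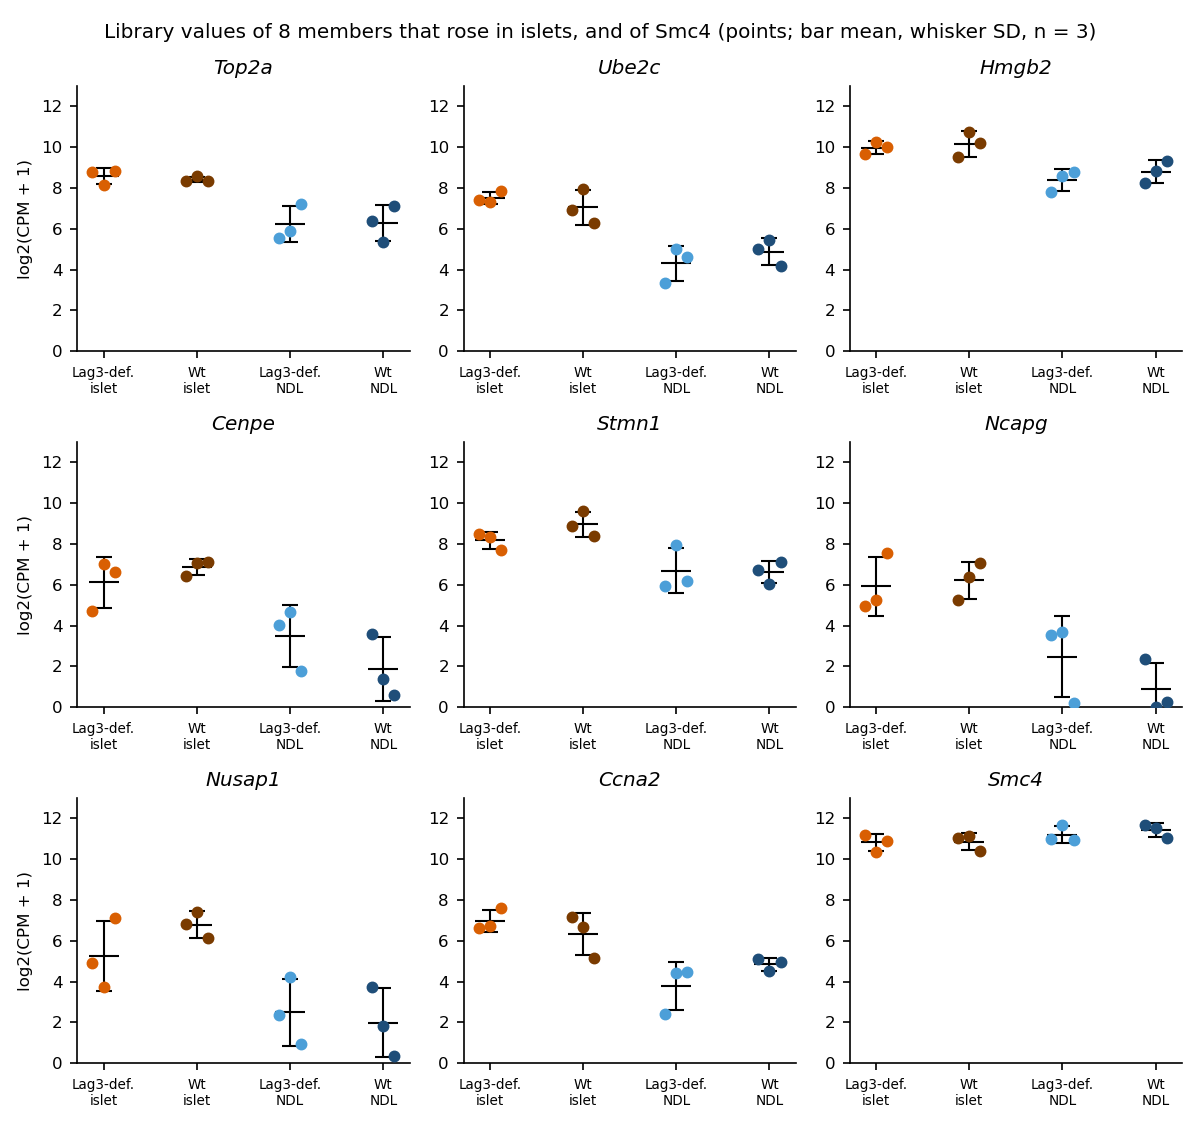
Levels as log2(CPM + 1) of the 8 members that rose in islets and of Smc4, in each library (points) of the 4 groups with the group mean (bar) and SD (whisker, n = 3). Islet points stand above NDL points for Top2a, Ube2c, Hmgb2, Cenpe, Ncapg and Ccna2, and Smc4 overlaps between tissues.

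Other cells could also be present in the islet libraries. The markers of exocrine pancreas summed to 34.1 to 2830 CPM in islet and 0 to 4.91 CPM in NDL libraries, those of endocrine cells to 2.2 to 227 and 0 to 0.363 CPM, and those of myeloid cells to 79.1 to 208 and 0.363 to 37.5 CPM. B cell markers summed to 175 to 591 CPM in islet and 52.9 to 189 CPM in NDL libraries, with Pax5 at 0 in all 12, and CD8 and NK markers to 67.6 to 442 and 19.6 to 115 CPM. Single genes carried much of some sums. Nkg7, a granule protein gene, held 50.7 to 440 CPM of the CD8 and NK sum in islets (adjusted p = 0.014), where Cd8a did not exceed 16.4 CPM, and Cybb, an oxidase subunit of phagocytes, 36.9 to 147 CPM of the myeloid sum (adjusted p = 0.000767). Stroma markers overlapped (4.68 to 156 and 6.81 to 114 CPM). Their part in the rise of the mitosis genes was not tested. The median over members was 2.03 without the 1b columns (-0.21 over all tested genes), with 1 member passing. It was 2.11 in the 1b columns alone (0.17 over all tested genes), where 41 of 48 were positive and no test can be made. The share of all tested genes positive there was not computed, and the split was chosen after seeing the data.

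Within each genotype alone, the direction was the same and 0 members passed. In Wt Tregs 45 of 48 members had a positive log2 difference between islets and NDL (54.2% of all tested genes), with a median of 2.19 against 0.10 over all genes. There, 26 members had an unadjusted p under 0.05 (5.01% of all tested genes were higher at it) and 0 were lower (2.52%), and all 3 islet libraries stood above all 3 NDL libraries for 26 members (8.37%) and below them for 0 (5.59%). Over all genes 0.184% rose. The smallest adjusted p was that of Cenpe (5.02 ± 1.09, limma adjusted p = 0.0764), and Ncapg had the largest difference (5.35 ± 1.3).

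In Lag3-deficient Tregs 44 of 48 were positive (44.5% of all tested genes), with a median of 1.59 against -0.15. An unadjusted p under 0.05 was reached by 16 members (3.42% of all tested genes were higher at it) and 0 were lower (5.29%), and 16 had islet libraries that all stood above the NDL libraries (5.44%) and 0 the reverse (7.28%). Over all genes 0.12% rose, and among the members Ube2c came closest (3.21 ± 0.68, adjusted p = 0.0725), before Top2a (2.37 ± 0.54, adjusted p = 0.108). In Wt Tregs Top2a differed by 2.12 and Ube2c by 2.16, and Hmgb2 differed by 1.36 in Wt and 1.58 in Lag3-deficient Tregs.

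Side by side, 43 of the 48 members were positive in both genotypes. The share of all tested genes positive in both was not computed (54.2% were positive in Wt and 44.5% in Lag3-deficient Tregs). The value was larger in Wt for 33 members and in Lag3-deficient Tregs for 15. Of all tested genes 42.3% had the larger value in Lag3-deficient Tregs. The values of the genotypes correlated weakly over the 48 genes (Pearson's r = 0.28, Spearman's rho = 0.21), and r was 0.29 over all tested genes, which are not independent replicates. Pttg1 had 3.34 ± 1.33 in Wt and -0.95 ± 1.33 in Lag3-deficient Tregs. Kif23, in contrast, had 2.61 ± 1.38 in Wt and 4.39 ± 1.38 in Lag3-deficient Tregs. Mki67 differed by 2.61 ± 0.67 in Wt and by 1.26 ± 0.67 in Lag3-deficient Tregs.

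**Figure D4:**
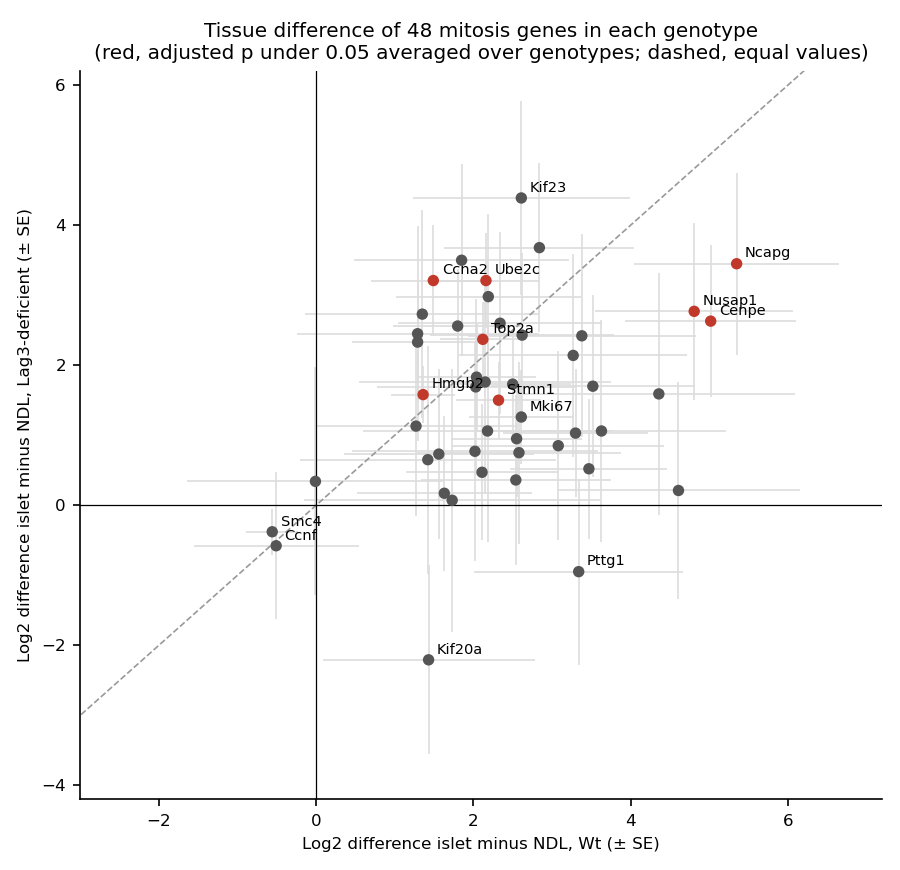
Log2 difference between islet and NDL libraries (± SE) in Wt (x axis) and in Lag3-deficient Tregs (y axis) for the 48 members, with those that rose averaged over genotypes in red and a dashed line of equal values. Of the points, 43 lie above 0 on both axes and 33 lie to the Wt side of the line.

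Whether Lag3 deficiency changed the mitotic machinery of islet Tregs was the question closest to the title of the series, and no member passed. In the Lag3-deficient against Wt comparison in islets 0 of 48 members passed, as did 0% of all tested genes. At an unadjusted p under 0.05 stood 1 member, 0 higher (1.24% of all tested genes) and 1 lower (4.5%). The log2 difference was above 0 for 11 of 48 (39.6% of all tested genes), with a median of -0.43 against -0.22 over all genes. Scaling by RLE size factors moved the all-gene median by 0.19 to -0.03 and the members' median to -0.23. With it 17 of 48 members were positive, and the share over all genes was not computed. The members' median was -0.69 without the 1b columns and -0.06 in the 1b columns alone.

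Pttg1 had the smallest p and the lowest value. It measured 183, 186 and 75.3 CPM in Wt and 3.69, 8.31 and 149 CPM in Lag3-deficient islet libraries, so that Lag3 islet 1b lay among the Wt values. The log2 difference was -2.88 ± 1.33 (limma adjusted p = 0.851). Mki67 came next, with the values given above and a difference of -1.21 ± 0.67 (95% interval -2.62 to 0.20, adjusted p = 0.926). Aurkb had the highest value: 15.2, 37.0 and 49.9 CPM in Lag3-deficient and 4.07, 46.6 and 17.5 CPM in Wt islet libraries (0.94 ± 1.37, adjusted p = 0.993). Only Ccnb1 and Tacc3, 2 members, were lower in every Lag3-deficient than in any Wt library (6.03% of all tested genes), and 0 members were higher in that way (3.29%). Ccnb1 measured 36.0, 28.1 and 52.0 CPM against 62.2, 91.5 and 59.8 CPM in Wt (-0.88 ± 1.18), and Tacc3 38.1, 101 and 71.1 CPM against 138, 122 and 136 CPM (-1.01 ± 0.92).

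The precision was low. The 95% interval of the islet genotype difference included 0 for 47 of 48 members and had a median width to either side of 2.63 log2 units. For 6 members its upper bound lay below 1, so that a log2 rise of 1 in Lag3-deficient islet Tregs lay outside the interval. The lower bound lay above -1 for 4 members, and 1 member had both bounds between -1 and 1. Top2a and Ube2c, which rose in islets, differed by 0.18 ± 0.54 and 0.48 ± 0.68 between genotypes there, with intervals that include 0.

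In NDL 0 of 48 members passed between genotypes, as did 0% of all tested genes, and at an unadjusted p under 0.05 stood 2 higher (1.43% of all tested genes) and 0 lower (1.3%). The median was 0.04 against -0.02 over all genes, with 26 of 48 positive (48.9%). Ndc80 measured 23.4, 42.0 and 144 CPM in Lag3-deficient and 12.2, 0.666 and 17.9 CPM in Wt NDL libraries, without overlap (2.84 ± 1.00, limma adjusted p = 1). Tpx2 measured 3.64, 34.4 and 155 CPM against 1.04, 0.848 and 10.2 CPM, with overlap and the highest value (3.08 ± 1.35, adjusted p = 1). The lowest value was that of Ccnb2, at 13.4, 2.52 and 0 CPM against 12, 2.97 and 64.9 CPM (-2.02 ± 1.49). Non-overlapping libraries were found for Ndc80 and Kif20a (2.83 ± 1.35), higher in Lag3-deficient NDL (3.89% of all tested genes), and for Ccna2 (-1.07 ± 0.79), lower (3.63%).

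The difference of the genotype effect between islets and NDL, a test of the interaction, had 0 members passing, as had 0% of all tested genes. The median was -0.82 against -0.24 over all genes, with 15 of 48 positive (42.3% of all tested genes). At an unadjusted p under 0.05 stood 0 higher (0.985%) and 1 lower (3.04%). Pttg1 had the smallest p with -4.29 ± 1.88, and its NDL values were 65.2, 0.121 and 33.0 CPM in Wt and 39.6, 45.8 and 23.8 CPM in Lag3-deficient libraries. Bub1 had the lowest value (-4.41 ± 2.19). It stood at 52.5, 35.8 and 11.5 CPM in Wt islet, 1.13, 14.2 and 26.9 CPM in Lag3-deficient islet, 0, 0.121 and 0.507 CPM in Wt NDL and 6.18, 0 and 80.9 CPM in Lag3-deficient NDL libraries, so that 1 NDL library carried much of it. Kif23 had the highest value (1.78 ± 1.95), from 70.0, 26.2 and 12.5 CPM in Wt islet, 57.7, 86.9 and 11.9 CPM in Lag3-deficient islet, 21.6, 3.45 and 0.145 CPM in Wt NDL and 1.25, 0.378 and 1.35 CPM in Lag3-deficient NDL libraries. For Mki67 it was -1.35 ± 0.95. The adjusted p was 1 for all 4, and in the 1b columns alone the median over the members was 0.30.

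The members moved together less once the means of the 4 groups, tissue and genotype at once, were removed. Over the 1128 pairs of members, the median correlation of log2 levels over the 12 libraries was 0.41, and 86.3% of pairs were above 0. The like values over all tested genes were not computed. After group means were removed the median was 0.11, with 60.5% above 0, against 0.045 and 54.2% over all tested genes. These are descriptions over libraries that share their scaling.

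The other genes of the cell cycle were taken from 7 lists, and the ones of DNA replication and of mitosis stood with the members. Over all tested genes 47.9% were positive in islets against NDL averaged over genotypes, with a median of -0.04, and 0.819% rose. Of 66 tested other mitosis and G2 genes 60 were positive in that comparison, with a median of 1.34. Of 38 replication genes 36 were positive, with a median of 1.36. Rrm2, the regulated subunit of ribonucleotide reductase, rose by 2.61 ± 0.51 (adjusted p = 0.014), and Pcna, the sliding clamp, differed by 1.16 ± 0.29 (adjusted p = 0.0579).

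The other 5 lists are to be read beside the same shares, 47.9% of all tested genes positive and 0.819% risen. Of the MuvB, B-Myb, FoxM1 and E2F regulators, 14 of 23 were positive, with a median of 0.33 and 0 passing, and E2f1 had the smallest p (1.38 ± 0.59). Of the subunits and regulators of the anaphase-promoting complex, 11 of 17 were positive, with a median of 0.13 and 0 passing. Of cohesin and its regulators 5 of 12 were positive (median -0.02), and of G1 cyclins and kinases 6 of 10 (median 0.08), with 0 passing in either. Ccnd2, the cyclin D2 gene, differed by -0.83 ± 0.32 (adjusted p = 0.295). Of 18 tested cell cycle inhibitors and quiescence genes 12 were positive, with a median of 0.37. Gadd45b, a stress-induced gene of this list, rose by 2.94 ± 0.53 (adjusted p = 0.00769), while Cdkn1a, which encodes the inhibitor p21, differed by 3.20 ± 0.97 (adjusted p = 0.161). None of the 7 lists had a member that passed in either genotype comparison or in the interaction.

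**Figure D5:**
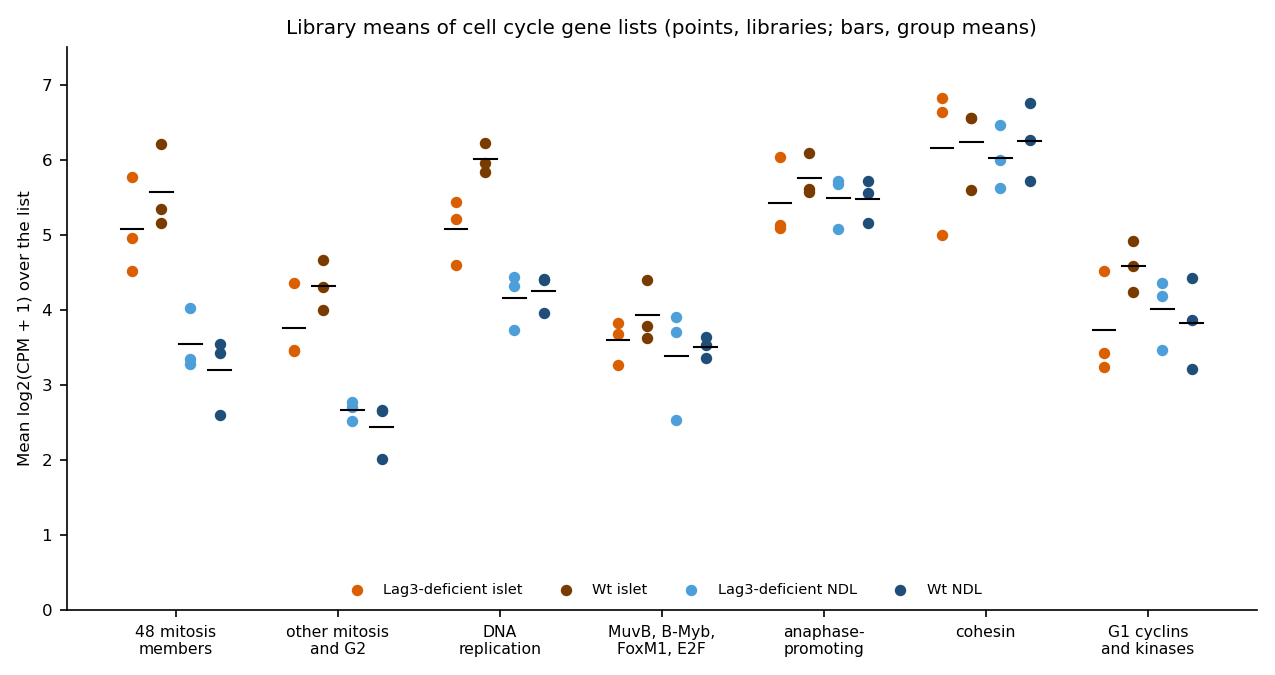
Mean log2(CPM + 1) over each list of cell cycle genes in each library (points) of the 4 groups, with group means (bars). All islet points stand above all NDL points for the 48 members, the other mitosis and G2 genes and the DNA replication genes, and tissues overlap for the other 4 lists shown.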

How the data were processed

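RNA-seq of 12 mouse libraries was analysed. The first deposited table holds a signal of rescaled counts (whole numbers scaled to nearly equal totals by the authors), and the second deposited table a further normalised signal of 10317 genes, used as an alternative. TopHat2, DESeq2 and mm10 are named without versions in the submitters' processing notes, and strandedness is not given in the sources used here. As these are not raw counts, limma 3.58.1 (R 4.3.3) with a mean-variance trend was fitted to log2(CPM + 1), scaled by TMM, in 1 model of 4 groups with 8 residual degrees of freedom. A gene was tested where 3 libraries or more reached 10 rescaled counts (10868 of 21708 genes above 0). Of the 48 members, 2 reached 10 only in islet libraries, and 6, these included, did so in fewer than 3 NDL libraries. Of the same 48, 14 were listed at 0 in at least 1 library, 16 have an exon overlapping another gene and 5 a named copy. Log2(CPM + 1) understates changes of low genes. The statistics were tried on simulated data with independent noise and large shifts planted in genes of moderate or high level. Smaller shifts, and shifts in low genes such as many members, were not tried. The members, gene lists and tests were chosen with earlier results of these data known. All 48 members were named. Library values were given for those that rose, the highest member (Smc4) and those with the smallest p or the largest difference of each genotype comparison, and from each list the genes that passed or else some of the 4 with the smallest p. Mki67, Cdk1, Aurka, Anln, Kif20a, Ccnb1 and Tacc3 were given values after these were seen. Markers and pathway lists came from textbook knowledge, and a result on 1 listed gene is not reported here.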

Additional observations from a re-analysis of the deposited data

How the results depend on the processing

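The count of members that rose in islets averaged over genotypes (8) was 6 to 11 in other settings. These were the other scalings, pseudocounts, filter, weights, a term for the 1b columns and the second table. It was 2 with no filter (Top2a and Ube2c), 1 without the 1b columns (Top2a), 2 without Lag3 islet 2 and Wt NDL 2, and 2 to 8 leaving out 1 library, lowest without Wt islet 2 and 5 without Lag3 islet 1b, Wt islet 1b or Wt NDL 2. The numbers are not known to pair the libraries: 2 of 18 same-numbered pairs had residual correlations above 0.1 (medians 0.02 to 0.032 by number, against -0.007 for different numbers), although 9 of 12 libraries were closest on average to their own number, a hint from the data and not the design. With the replicate block 7 rose. In Lag3-deficient Tregs alone 2 rose with RLE size factors and 2 in the second table, in Wt 2 in the second table, and 0 to 1 leaving out 1 library in either. In all 24 settings 0 passed between genotypes and in the interaction, whose median was -1.37 to -0.25 leaving out 1 library and 0.30 in the 1b columns alone, where the Lag3-deficient tissue median was 2.25. The sign turned for Ccnb2 between genotypes in NDL without the 1b columns (0.03) and for Nuf2 between tissues without Lag3 islet 2 and Wt NDL 2 (-0.28). Leaving out 1 library the tissue difference also turned for Nuf2 (-0.5 to 0.89, lowest without Lag3 islet 2), Ccnf (-0.94 to 0.03, highest without Wt NDL 1b), Kif20a (-1.08 to 0, highest without Lag3 islet 1a) and, in Lag3-deficient Tregs, Pttg1 (-2.45 to 0.05, highest without Lag3 islet 1a). The cause was not tested. Unknown depth allows no counting interval.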
